A study of Mus musculus with 6 samples.

Results

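Mir331 is the microRNA gene examined here, together with its surroundings in Vezt. It is 1 of the 1174 mouse hairpins with a Mir symbol in GENCODE M21, of which 869 had at least 1 matching tag in these libraries. A tag is a read sequence, and numbers of tags are counts of reads unless distinct sequences are named. All tags of 18 to 26 bases that matched the Mir331 hairpin exactly on its sense strand were taken, and were sorted by arm, start, length and untemplated 3′ end. Mir331 was chosen by the counts of its exact tags, which were seen to differ between these libraries, so their levels and ratios, and shares that include them, are a description. The cells are J1 mouse embryonic stem cells, grown on gelatin with 1000 U/ml of leukemia inhibitory factor in every group and treated for 24 h. The groups received 1 µM retinoic acid, 1 µM BIO or 3 µM CHIR99021, with 1 µL DMSO as their control, or 50 µg/ml vitamin C, with 1 µL ddH2O as its control. Retinoic acid drives such cells to differentiate. BIO and CHIR99021 are inhibitors of GSK3, a kinase of the Wnt pathway. Vitamin C keeps dioxygenases active that remove methyl marks from histones and DNA. Each of the 6 groups has 1 library, so no p-value can be given and variation between cultures is not known.

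A microRNA is cut from a hairpin in a longer transcript by Drosha and Dicer, which leaves a short duplex of a 5p and a 3p strand. One strand is usually kept in an Argonaute protein, and its seed, bases 2 to 8, pairs with target messenger RNAs. Nucleotidyl transferases can add bases to the 3′ end that the hairpin does not encode, most often A or U. Vezt encodes vezatin, a membrane protein of adherens junctions, the contacts in which cadherins and catenins hold neighbouring cells together.

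The hairpin has 96 bases and lies at chr10:93963768-93963863 on the minus strand of GRCm38. Vezt (ENSMUSG00000036099.16) covers chr10:93939165-94035817 on the same strand and has 11 annotated transcripts. In Vezt-204 the hairpin is exonic, in the 3′ untranslated part of exon 12, the last exon. In Vezt-208 it is intronic, and it lies outside the other 9 transcripts. No other annotated microRNA lies within 500 kb, and the nearest, Mir7688, is 530606 bases away. The mature sequences below are from RefSeq (GRCm38.p6) with the seed in capitals, and show the strand that was kept and its partner. miR-331-3p lies at chr10:93963783-93963803 and miR-331-5p at chr10:93963817-93963838.
miR-331-3p: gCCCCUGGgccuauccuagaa
miR-331-5p: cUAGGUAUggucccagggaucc

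Among 1679 mature mouse microRNA names in RefSeq, no other shares the seed of miR-331-3p. The seed of miR-331-5p is shared with mmu-miR-6973b-5p, of which no arm was measured. The 21-base tag printed first below, with its 20-base and 22-base forms, made up 1932 of the 1970 exact miR-331-3p tags, and the seed is again in capitals. Tags with added bases counted in, these 3 forms were 1932 of 2981 tags over the 6 libraries and 35 of 183 in retinoic acid. They are followed by the commonest forms with an added base, which is then the capital, and by the commonest tags from the base of the hairpin next to miR-331-5p, all in lower case. These are the sequences the counts below refer to.
Main tag: gCCCCTGGgcctatcctagaa
Tag one base shorter: gCCCCTGGgcctatcctaga
Tag one base longer: gCCCCTGGgcctatcctagaac
Main tag with T: gcccctgggcctatcctagaaT
Main tag with A: gcccctgggcctatcctagaaA
Offset tag of 19 bases: ggttttgtttgggtttgtt
Offset tag of 18 bases: gttttgtttgggtttgtt

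The libraries held 18870345 to 23758363 tags. MicroRNA tags made up 3.76% (729176 tags, retinoic acid) to 11.4% (2155065 tags, DMSO), and levels are given per 1000000 of these (CPM). With 3 counts as the limit, no tag in a library still allows a level of 1.39 CPM (DMSO) to 4.11 CPM (retinoic acid). Stem cell microRNAs of the miR-290 and miR-302 clusters (11 hairpins) summed to 166557 CPM in the retinoic acid library and 269895 to 338992 CPM in the other 5. Of these hairpins 2 were at 0 in retinoic acid and 1 in ddH2O. The sum does not stand for each member. In CPM the abundant arms miR-293-3p and miR-290a-5p were lower in retinoic acid than in DMSO. Other arms of the miR-290 cluster differed little, with log2 ratios of 0.04 for miR-291a-3p and -0.11 for miR-294-3p. Arms of miR-302 were mixed, with miR-302a-5p lower and miR-302d-3p higher. Intervals are 95% exact binomial (Clopper-Pearson) intervals. They cover counting error only, and since the reads carry no molecular identifiers they may be copies of one another.

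The hairpin gave 2170 exact tags of 20 distinct sequences over the 6 libraries. miR-331-3p made up 1970 of them (90.8%, interval 89.5 to 92.0%) and miR-331-5p 10 (0.461%, 0.221 to 0.846%). The remaining 190 tags (8.76%, 7.60 to 10.02%) came from the stretch before miR-331-5p. No tag that lay wholly within the hairpin came from the loop or elsewhere, and none of 27 to 44 bases matched it. A further 3 tags began in the hairpin at position 82, after miR-331-3p, and ran past its annotated end. The 3p strand was the main one in every library, and held between 76.4% (ddH2O) and 95.3% (vitamin C) of the exact hairpin tags.

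**Figure D1:**
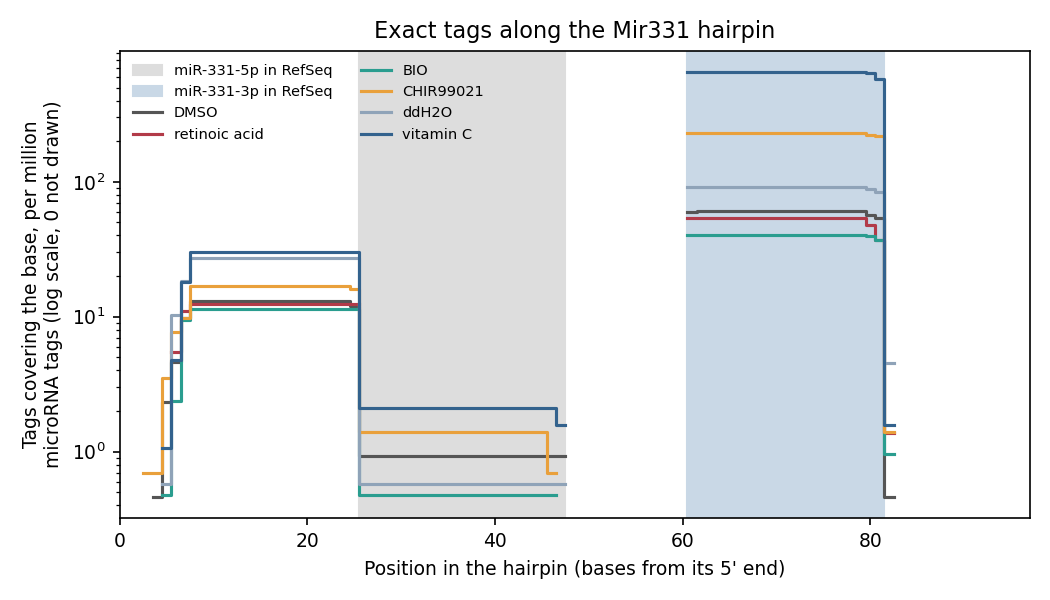
Exact tags covering each base of the Mir331 hairpin, per 1000000 microRNA tags on a log axis, against the position in bases from its 5′ end, with 1 line per library and the RefSeq arms shaded. The lines are spread widest over miR-331-3p, stay near or under 2 CPM over miR-331-5p and form a second block of 11.4 to 30.2 CPM just before miR-331-5p.

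miR-331-3p was most abundant in the vitamin C library, with 1232 tags or 652 CPM (616 to 689). The CHIR99021 library held 326 tags or 228 CPM (204.1 to 254). The ddH2O control held 159 tags (90.9 CPM, 77.3 to 106) and the DMSO control 130 (60.3 CPM, 50.4 to 71.6). Retinoic acid and BIO were at the low end. The retinoic acid library held 39 tags (53.5 CPM, 38.03 to 73.1) and the BIO library 84 (40.0 CPM, 31.9 to 49.5).

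Put in order of CPM, the levels of BIO and retinoic acid could not be separated (ratio 1.34, 0.890 to 1.98), nor those of retinoic acid and DMSO (1.13, 0.783 to 1.66). The latter pair holds for this scaling only: the ratio of retinoic acid to DMSO was 0.627 with TMM (0.427 to 0.904), 0.689 with median-of-ratios (0.469 to 0.992) and 0.292 per all tags (0.199 to 0.421). With each of these scalings retinoic acid rather than BIO was lowest, as BIO over DMSO was 0.716, 0.725 and 0.548. In CPM each later step in the order had an interval that left out 1: ddH2O over DMSO 1.51, CHIR99021 over ddH2O 2.51 and vitamin C over CHIR99021 2.86. Per all tags the step of ddH2O over DMSO was 1.13, with an interval that includes 1 (0.893 to 1.44). In CPM the highest library, vitamin C, was 16.3 times the lowest, BIO. Of the 250 microRNA arms at a mean of 100 CPM or more, miR-331-3p had the sixth widest range, 4.01 in log2(CPM + 0.5) beside a median of 1.15 (rank 6).

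**Figure D2:**
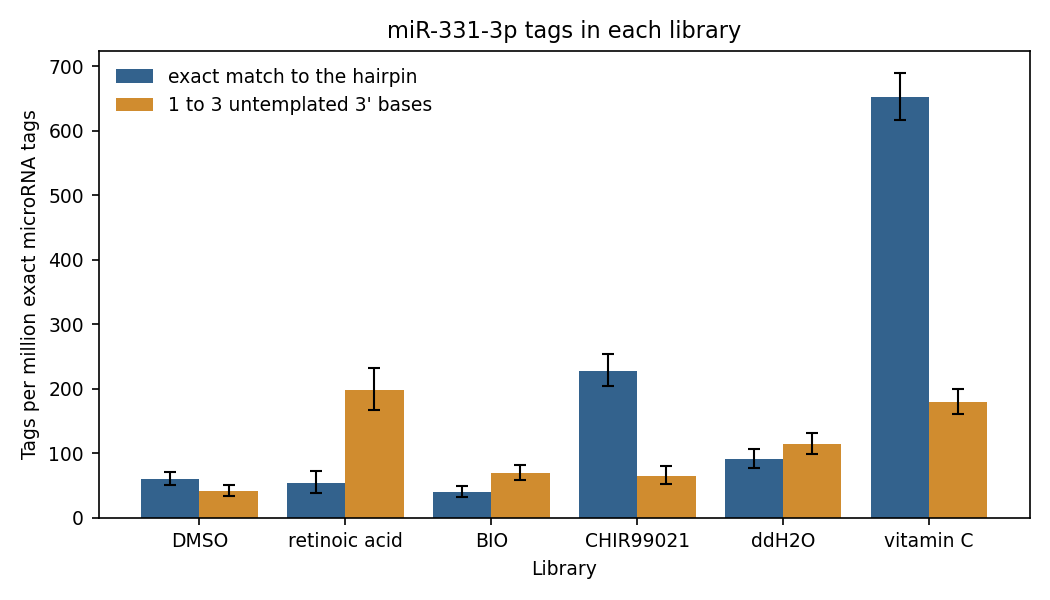
miR-331-3p in each of the 6 libraries, in tags per 1000000 exact microRNA tags, for exact tags and for tags with 1 to 3 untemplated 3′ bases. Bars are the values of single libraries and whiskers are 95% Poisson intervals of the counts. Exact tags stand out in vitamin C and CHIR99021, while untemplated tags are about as high in retinoic acid (197) as in vitamin C (179).

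In the comparison of vitamin C with ddH2O, miR-331-3p was 7.17-fold higher (6.07 to 8.51). An arm was called when it differed at least 2-fold, the interval left out 1 and the higher library reached 10 CPM, and 5.98% of 485 arms were called higher in this comparison. miR-331-3p ranked 3 from the top of these arms, and 1 among the 259 with at least 100 CPM in either library. The 21-base main tag numbered 1093 against 140. The 20-base tag numbered 122 in vitamin C and 5 to 8 in each of the other 5 libraries, and was 16.1-fold higher than in ddH2O (7.59 to 41.0). At 1.44%, fewer arms were called lower than higher in this comparison.

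In the comparison of CHIR99021 with DMSO, miR-331-3p was 3.78-fold higher (3.08 to 4.67), where 6.25% of 480 arms were called higher. It ranked 10 of the 480 and 3 among 250 at 100 CPM or more. Arms called lower made up 12.3%. The main tag numbered 312 against 114 (4.13-fold, 3.32 to 5.16). The 20-base tag numbered 6 in each library. Scaled to the whole library instead, the ratio was 1.99 (1.62 to 2.46), which is under the 2-fold needed for a call.

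BIO, the other GSK3 inhibitor, was used at 1 µM and CHIR99021 at 3 µM, so they are set side by side only. The ratio of BIO to DMSO was 0.663 (0.498 to 0.879), or 1.51-fold lower. It was not called, in a comparison where 5.3% of 472 arms were called lower and 1.91% higher (25 and 9 arms, or 19 and 13 with TMM scaling). The authors' note on the BIO library states that its raw reads were lost. The comparisons of BIO, CHIR99021 and retinoic acid share the DMSO library.

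The ratio of retinoic acid to DMSO was 0.887 (0.603 to 1.28) for exact tags and was not called, and lay lower under the other scalings given above. In this comparison 33.1% of 534 arms were called higher and 7.68% lower (177 and 41 arms, or 100 and 91 with TMM scaling). The 2 vehicle libraries, ddH2O and DMSO, differed 1.51-fold (1.19 to 1.92). That was not called, while 4.97% of 483 arms were called higher and 2.28% lower (24 and 11 arms, or 20 and 20 with TMM scaling). Against the other vehicle, miR-331-3p was 10.8-fold higher in vitamin C (9.01 to 13.0) and 2.51-fold higher in CHIR99021 (2.07 to 3.05).

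**Figure D3:**
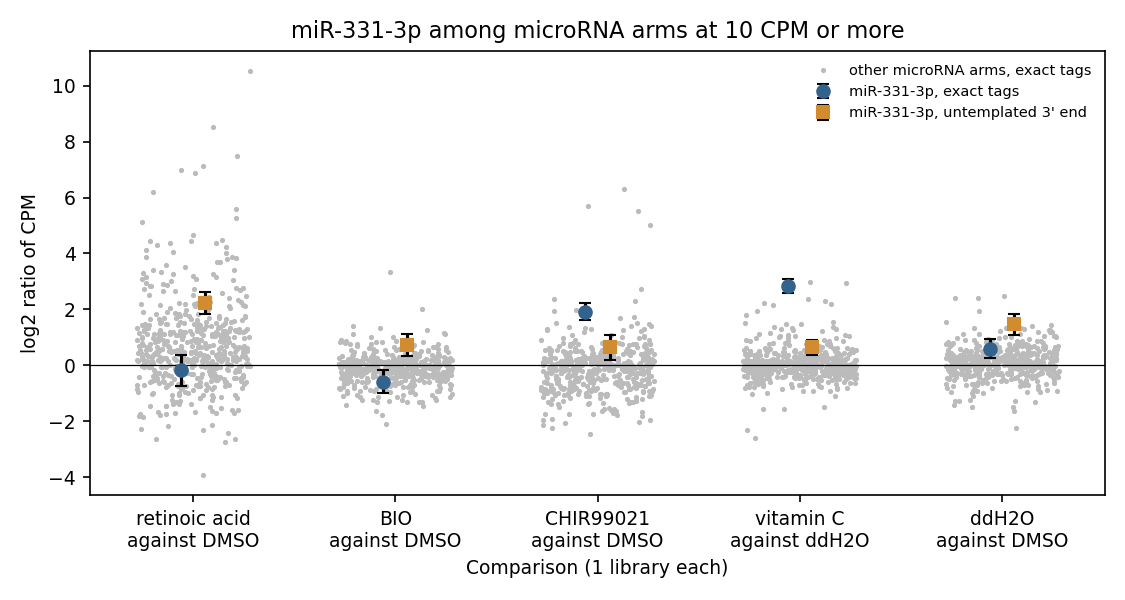
log2 ratio of CPM for every microRNA arm that reached 10 CPM in either library (grey points) in 5 comparisons of 1 library with another, with miR-331-3p as exact tags (circles) and as tags with an untemplated 3′ end (squares), whiskers being 95% intervals. The exact tags lie near the top in vitamin C and CHIR99021, where the untemplated tags lie below them. In retinoic acid, BIO and ddH2O, each against DMSO, the untemplated tags lie above the exact ones.

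Several features of the libraries differed alongside these levels. Tags of 18 and 19 bases were most frequent in vitamin C (18.7% of all tags) and CHIR99021 (15.8%), against 8.01 to 14.4% elsewhere. With tags of 20 to 24 bases only, the vitamin C ratio was 7.37 and the CHIR99021 ratio 3.86. The 3 hairpins of the neuronal microRNA miR-124a summed to 5571 CPM in vitamin C and 3795 in CHIR99021, against 952 to 3340 elsewhere. These hairpins share their mature sequences and were counted as merged arms. The liver microRNA miR-122 was at 1325 CPM in CHIR99021 and 22.4 to 54.9 elsewhere. Markers of blood cells (4 hairpins, 1 of them at 0 in each library) summed to 312 CPM in CHIR99021 and 294 in vitamin C, against 177 to 281 elsewhere. Markers of fibroblasts (5 hairpins, at most 1 of them at 0) summed to 1473 CPM in CHIR99021 and 2156 in vitamin C, against 1533 to 2218 elsewhere. The sum of the 5 muscle hairpins ran from 589 CPM in CHIR99021, where 2 of them were at 0, to 6326 CPM in retinoic acid. The part of these cell type markers in the miR-331-3p levels was not tested. The main tag has 61.9% G and C. Arms within 5 points of this share had a median log2 ratio of 0.10 for vitamin C against ddH2O (44 arms, highest 2.36) and -0.20 for CHIR99021 against DMSO (38 arms, highest 1.27), where miR-331-3p had 2.84 and 1.92.

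The 5′ end of miR-331-3p, which sets the seed, was nearly fixed. Of 1970 exact tags, 1967 (99.8%, 99.6 to 99.97%) began at hairpin position 61, and the 3 that began 1 base later were in DMSO (2) and vitamin C (1). The 3′ end varied more. Exact tags ended at position 81, the RefSeq end, in 89.2% of cases in DMSO (82.6 to 94.0%). In CHIR99021 the share was 95.7% (92.9 to 97.6%) and in retinoic acid 66.7% (49.8 to 80.9%). Tags with an untemplated 3′ end are not in these shares, and in retinoic acid they were 144 of 183. Of these, 59 carried a single added A and 49 a single added T after all 21 bases of the main tag. Among exact tags the share ending 1 base earlier was 9.90% in vitamin C (8.29 to 11.7%), 20.5% in retinoic acid (9.30 to 36.5%) and 1.84 to 5.95% in the other 4. Untemplated tags with 20 bases of the hairpin are left out. With 1 added C these numbered 59 in vitamin C, 18 in CHIR99021 and 1 in retinoic acid. The shares and their order therefore hold for exact tags only. Tags with 1 changed base before the last position numbered 0 to 11 per library, at most 1.00% of the main tag with its copies.

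A further set of tags began as miR-331-3p and ended in 1 to 3 bases that the hairpin does not encode. These untemplated tags numbered 90 in DMSO (41.8 CPM), 201 in ddH2O (115 CPM), 338 in vitamin C (179 CPM), 93 in CHIR99021 (65.1 CPM), 145 in BIO (69.1 CPM) and 144 in retinoic acid (197 CPM). In CPM their order differs from that of the exact tags: retinoic acid was highest and DMSO lowest. With TMM, median-of-ratios or all-tags scaling vitamin C was highest instead. Per all tags CHIR99021 was lowest, at 0.821 times DMSO. None of these tags also belonged to another arm.

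As a share of all miR-331-3p tags, exact and untemplated, they made up 78.7% in retinoic acid (72.0 to 84.4%), 63.3% in BIO (56.7 to 69.6%) and 55.8% in ddH2O (50.5 to 61.0%). The share was 40.9% in DMSO (34.3 to 47.7%). It was 22.2% in CHIR99021 (18.3 to 26.5%) and 21.5% in vitamin C (19.5 to 23.6%), the libraries with the most exact tags. Over the 250 arms at 100 CPM or more the median share lay between 6.61% (DMSO) and 8.33% (CHIR99021). miR-331-3p was above 207 (CHIR99021) to 247 (retinoic acid) of these arms.

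The exact tags, by which Mir331 was chosen, are part of this share, so its differences between libraries are given as values only. It was lower in vitamin C than in ddH2O and lower in CHIR99021 than in DMSO. In both comparisons the exact tags were more and the untemplated tags differed by less than 2-fold.

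**Figure D4:**
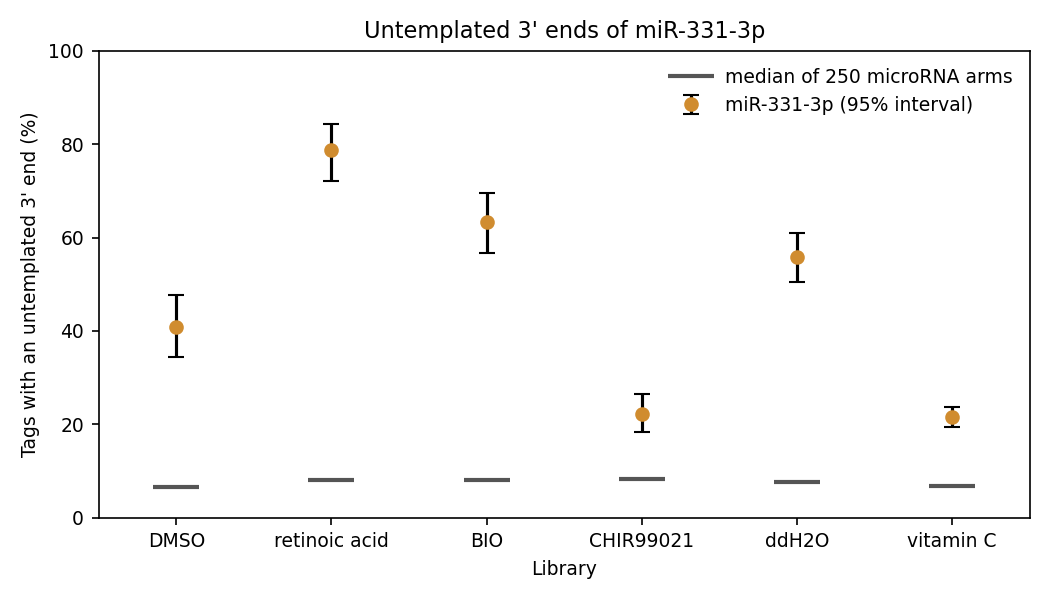
Share of miR-331-3p tags with 1 to 3 untemplated 3′ bases in each library, in percent, with 95% Clopper-Pearson intervals, and the median share of 250 microRNA arms as a grey dash. The share is 78.7% in retinoic acid and under 23% in CHIR99021 and vitamin C, while the median of the arms stays between 6.61 and 8.33%.

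Ratios of the untemplated tags alone gave other results than those of exact tags. Vitamin C over ddH2O was 1.56-fold (1.30 to 1.86) and CHIR99021 over DMSO 1.56-fold (1.15 to 2.11), and neither was called. Among arms, 2.57% and 8.12% were called higher on untemplated tags in these comparisons. Retinoic acid over DMSO was 4.73-fold (3.61 to 6.22) and was called, where 33.6% of 298 arms were, but per all tags it was 1.56-fold (1.19 to 2.05). The ddH2O library was 2.75-fold over DMSO (2.14 to 3.57), also called, beside 8.52% of 270 arms. BIO over DMSO was 1.65-fold (1.26 to 2.18), not called, beside 1.55% of 258 arms.

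With exact and untemplated tags counted together, per 1000000 of both kinds, vitamin C was 4.06-fold over ddH2O (3.62 to 4.56) and CHIR99021 2.82-fold over DMSO (2.39 to 3.33). Both passed the rule, as did 4.79% and 6.56% of arms in the higher direction. Retinoic acid was then 2.32-fold over DMSO (1.90 to 2.84), a call shared by 31% of 546 arms. It was no longer called with TMM (1.64, 1.34 to 2.01) or median-of-ratios scaling (1.81, 1.48 to 2.21), and per all tags the direction turned (0.810, 0.662 to 0.990). The CHIR99021 ratio was 1.51 per all tags (1.28 to 1.79), which is not a call. BIO stood at 1.06-fold (0.874 to 1.28) and ddH2O at 1.98-fold over DMSO (1.67 to 2.36), without a call, where 2.08% and 5.49% of arms were called higher.

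The added base was mostly T or A, which stand for U and A in the RNA. The main tag with T numbered 37 in DMSO, 73 in ddH2O, 120 in vitamin C, 36 in CHIR99021, 51 in BIO and 49 in retinoic acid. The main tag with A numbered 23, 69, 76, 17, 40 and 59 in the same order. In retinoic acid each of these forms outnumbered the 26 copies of the main tag itself. A single added A made up 32.2% of miR-331-3p tags in retinoic acid, where the median of the 250 arms was 2.46%. In CHIR99021 and vitamin C it made up 4.06% and 4.97%, beside medians of 2.60% and 2.44%.

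Tags with a single C after 20 bases of the hairpin were next, and were most frequent in the libraries with the most exact tags. They numbered 59 in vitamin C and 18 in CHIR99021, and 1 to 7 in the other 4 libraries. These counts leave out tags with more bases after the C. Tags with CA there numbered 11 in vitamin C, 9 in BIO, 8 in ddH2O, 6 in CHIR99021, 4 in retinoic acid and 0 in DMSO. An added C cannot be told apart here from a changed last base of the 21-base tag. Single added G was seen in 0 to 2 tags per library.

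The tags from the start of the hairpin form the second product of Mir331. They comprised 9 sequences of 18 to 23 bases, all ending at hairpin position 24 or 25, next to the first base of miR-331-5p at position 26. Short RNAs that abut a mature microRNA in this way are known as offset RNAs. They numbered 28 in DMSO (13.0 CPM), 48 in ddH2O (27.5 CPM), 57 in vitamin C (30.2 CPM), 24 in CHIR99021 (16.8 CPM), 24 in BIO (11.4 CPM) and 9 in retinoic acid (12.3 CPM). The ddH2O library was 2.11-fold over DMSO (1.30 to 3.50), past the rule used for arms. That call was lost with TMM (1.95), median-of-ratios (1.99) and all-tags scaling (1.59), and without the 18-base tag (1.88, 1.05 to 3.43).

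For the offset tags the treated libraries were closer to their controls than for miR-331-3p. The ratio of vitamin C to ddH2O was 1.10 (0.735 to 1.65) and that of CHIR99021 to DMSO 1.29 (0.717 to 2.31). Mir331 was chosen by the counts of its exact tags, so this contrast with miR-331-3p is given as values only. Of 106 hairpins with room for such tags before the 5p arm, 27 had any, and Mir331 had the most, followed by Mir138-1 with 78. Offset tags outnumbered the 5p tags in 3 of the 106. The 18-base offset tag, 61 of the 190, also matches 4930455D15Rik exactly, and no other tag of the hairpin matched a further annotated gene.

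miR-331-5p, the partner strand, numbered 2 in DMSO, 1 in ddH2O, 4 in vitamin C, 2 in CHIR99021, 1 in BIO and 0 in retinoic acid. At 4 tags vitamin C was the sole library above the limit of 3 counts, and the ratio to ddH2O was 3.70 (0.366 to 182). A difference in this strand was not detectable at this depth. In the predicted fold of the hairpin (-43.6 kcal/mol), 19 of the 21 bases of miR-331-3p, 17 of the 22 of miR-331-5p and 14 of the 19 of the commonest offset tag were paired.

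Fragments of the rest of Vezt were few. Not counting tags wholly within the hairpin, 24 sense tags of 19 sequences matched Vezt and no other annotated gene, 3 in DMSO, 4 in ddH2O, 3 in vitamin C, 5 in CHIR99021, 7 in BIO and 2 in retinoic acid. Vitamin C and CHIR99021 did not stand out in these counts, which are too small to show a difference. The antisense strand gave 3 tags. Of the 24, 6 lay in exons 1 to 11 of Vezt-204, 10 in its last exon before the hairpin, and 5 in other Vezt transcripts. These 21 lay wholly outside the hairpin. The remaining 3, from DMSO, retinoic acid and ddH2O, began at the base that follows miR-331-3p and had their first 15 bases in the hairpin. Their place is the mirror of the offset tags on the other side of the stem.

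Per 1000000 tags and per kb of exon, the 24 Vezt fragments stood at 0.00933 over the 6 libraries. The exons of all transcripts of a gene were merged, to 20535 bases for Vezt and 8566 for Myo7a. Myo7a had 17 fragments, so Vezt lies below it by this length and not by count. The 10 genes listed for comparison encode junction proteins and partners of vezatin. They ran from 0.0158 for Myo7a, a myosin, to 2.04 for Ctnnb1, which encodes β-catenin. Next above Vezt were Myo7a and Ctnnd1 (0.0404), which encodes p120-catenin. These places hold for tags that match no other gene. With tags of several genes kept, Vezt (0.0179) and Myo7a (0.0895) were still lowest. Ctnnd1 then stood at 0.367, and Jup (2.45) lay above Ctnnb1 (2.27). These are fragments of 18 to 26 bases in small RNA libraries, and messenger RNA levels were not measured.

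**Figure D5:**
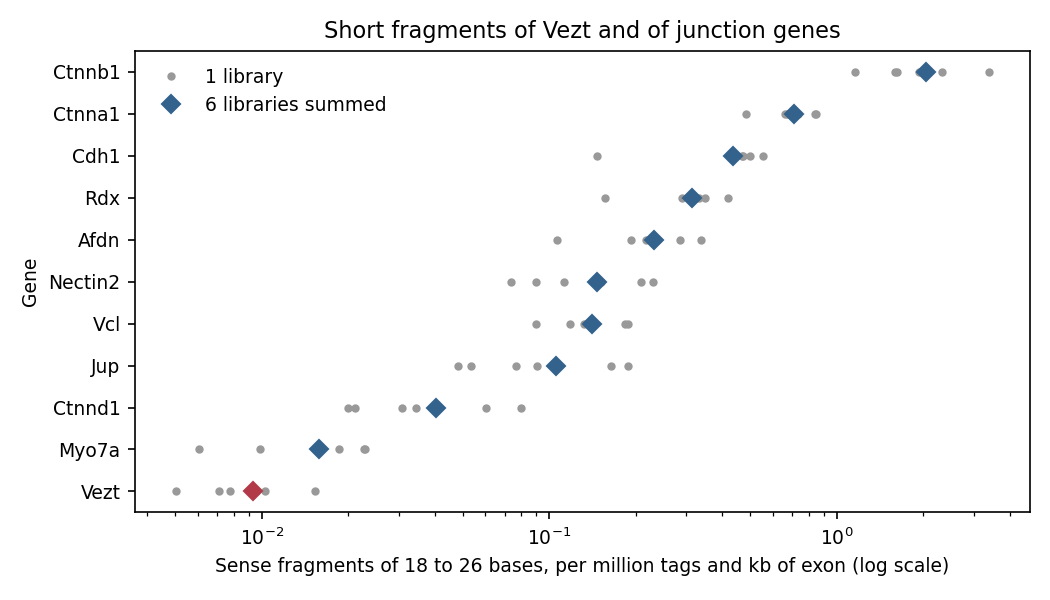
Sense fragments of 18 to 26 bases that match 1 annotated gene only, per 1000000 tags and per kb of exon on a log axis, for Vezt (tags not wholly within the hairpin) and for 10 junction genes. Small points are single libraries and diamonds are the 6 libraries summed. Vezt is lowest at 0.00933, over 20535 merged exonic bases, and Ctnnb1 highest at 2.04.

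The arm with the profile nearest to that of miR-331-3p was miR-341-3p, of the imprinted Dlk1-Dio3 cluster. Likeness was the root mean square difference of centred log2 CPM over the 6 libraries, among the 249 other arms at a mean of 100 CPM or more, and it was 0.79 for miR-341-3p. It was 0.80 for the merged arm miR-3473b-3p/miR-3473e-5p, 1.03 for miR-124a-3p and for miR-3470b-5p, and 1.07 for miR-345-3p. All 5 were highest in vitamin C except miR-3470b-5p, which was highest in CHIR99021. The level of miR-341-3p was 4192 CPM in vitamin C and 755 to 1754 CPM elsewhere. Its untemplated share was 66.0% in CHIR99021 and 66.2% in vitamin C, and 78.2 to 90.7% in the other 4 libraries. That of miR-345-3p lay between 66.0% (vitamin C) and 79.1% (BIO), and that of miR-3473b-3p/miR-3473e-5p was lowest in vitamin C at 14.6% but 31.9% in CHIR99021, above the 26.7% of DMSO.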

How the data were processed

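The deposited files list distinct read sequences of 18 to 44 bases with raw counts per sequence, checked as whole numbers. Per the labels' protocols, total RNA was extracted with TRIzol and 1 µg went into an Illumina TruSeq RNA kit. The submitters' processing notes name mm9. The aligner and any trimming are not given in the sources used here. The files carry no coordinates, so all positions are on GRCm38. Each of the 6 samples is 1 group.

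Tags of 18 to 26 bases were matched exactly to GENCODE M21 hairpins. Other arms were defined by their most abundant tag with starts within 2 bases, while those of Mir331 follow RefSeq. Tags matching ribosomal, mitochondrial, small nuclear or small nucleolar RNA or Gm42418 were left out, and tags of several arms were split evenly. Up to 3 untemplated 3′ bases were allowed where stated. Log2 ratios and profiles used a pseudocount of 0.5, and profiles, shared seeds, hairpins within 500 kb and 10 junction genes chose what is named. Ratios carry exact conditional binomial intervals (SciPy 1.17.1). Scaling alternatives used edgeR 4.0.16 (TMM) and DESeq2 1.42.0, for factors only. Folding used RNAfold 2.7.2. Counting and calls were tested on simulated data. Members, lists and rules were chosen with earlier results of these data known. Matches elsewhere in the genome were not searched.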

Additional observations from a re-analysis of the deposited data

How the results depend on the processing

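No paired analysis was possible because each group has 1 library. Across TMM and median-of-ratios scaling, the most abundant tag alone, tags counted once left out, tags of 20 to 24 bases, and tags matching no other annotated transcript (added after the data were seen), the ratio of miR-331-3p stayed between 3.78 and 4.13 for CHIR99021 against DMSO and between 7.05 and 7.37 for vitamin C against ddH2O. Scaled to all tags, the ratio was 1.99 for CHIR99021, 0.292 for retinoic acid and 1.13 for ddH2O against DMSO. With untemplated tags also counted it was 4.06 for vitamin C, 1.98 for ddH2O, 2.82 for CHIR99021, 1.06 for BIO and 2.32 for retinoic acid. Untemplated tags alone, also added after the data were seen, gave 1.56, 2.75, 1.56, 1.65 and 4.73 in the same order. Against the other vehicle it was 10.8 for vitamin C, 2.51 for CHIR99021, 0.588 for retinoic acid, and 0.44 for BIO, which is then called lower. Per all tags the untemplated tags of CHIR99021 gave 0.821 and those of retinoic acid 1.56. Other scalings of the untemplated and offset tags were added after the data were seen. The cause of these differences was not tested. With 1 added base only, the untemplated share was 54.6% in BIO, 49.5% in ddH2O and 19.1% in vitamin C. Vezt fragments numbered 46 when tags of several genes were kept. TMM scaling shifted all log2 ratios by -0.50 for retinoic acid, 0.11 for BIO and -0.11 for ddH2O, each against DMSO, and scaling to all tags by -1.60, -0.28 and -0.41, with -0.93 for CHIR99021. Keeping only tags with 1 match in the genome was not run, as no genome sequence was used here. The few tags of miR-331-5p and of Vezt limit what can be said of them.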
